A study of Mus musculus with 4 samples.

Results

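The genotype comparison after kidney injury set the array titled Tet2KO_IR against the array titled WT_IR, over every probe set that the array's annotation pairs with exactly 1 gene symbol. Of 45037 probe sets 34945 met that rule, and they stand for 18193 genes, each read from 1 probe set. The series held 4 arrays, 1 per group, and 2 of them made this comparison. Both were hybridised with kidney RNA of male C57Bl/6 mice, wild type or labelled Tet2 knockout, after 60 min of renal ischemia and 24 h of reperfusion. WT_Sham and Tet2KO_Sham, from mice of the same strain and sex after sham surgery, are given beside them. Each array held RNA pooled from 3 mice kept under specific-pathogen-free conditions. Neither how Tet2 was deleted nor the age of the mice is given in the sources used here. With 1 array a side the differences have no replicate check, no p-value was computed, and precision is limited by there being so few arrays.

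Tet2 encodes a dioxygenase that oxidises methylated cytosine in DNA, a first step towards its removal. Ischemia followed by reperfusion damages the kidney tubule, above all the last, straight segment of the proximal tubule in the outer medulla. Surviving tubule cells lose transporters and metabolic enzymes and switch on genes of injury and repair, while endothelium and stroma are disturbed and white blood cells enter the tissue.

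Values are log2 signals as deposited, given in the order WT_Sham, WT_IR, Tet2KO_Sham and Tet2KO_IR unless the arrays are named. A floor was set at a log2 signal of 5.72, the 40th percentile of all signals, and lower signals were raised to it before a ratio was taken. A gene counted as measured if it reached the floor on 1 or both ischemia-reperfusion arrays, which 13492 genes did, 12670 of them on both. The other 4701 genes lay below the floor on both and enter no count. A ratio is Tet2KO_IR over WT_IR, and a gene was called at 2-fold or more, a log2 ratio of 1. Where the signal of one array was below the floor, the fold is a lower bound, written "at least".

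Kidney identity was plain on all 4 arrays: Umod, the most abundant protein of urine, made in the thick ascending limb, had log2 signals of 14.52, 14.52, 14.43 and 14.02, and Slc34a1, which takes up phosphate in the proximal tubule, 13.39, 12.53, 13.51 and 12.30. Tet2 itself had 9.84, 9.30, 10.25 and 8.60. It was lower on Tet2KO_IR than on WT_IR, with a log2 ratio of -0.70, and -0.41 on its other measured probe set, but after sham it was higher on the knockout-labelled array. The other probe set had 9.96 on WT_Sham and 9.87 on Tet2KO_Sham, close to equal. Where these probe sets lie relative to the deletion was not known, so the signal does not check the label, and both arrays of that genotype are called knockout-labelled. Signals of WT_IR and Tet2KO_IR correlated across probe sets with a Pearson r of 0.978, within the range of 0.963 to 0.993 over all pairs of arrays. Median signals lay between 6.28 and 6.33.

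On Tet2KO_IR 497 measured genes (3.68%) were higher and 539 (3.99%) were lower than on WT_IR at 2-fold or more. At 4-fold or more 79 were higher and 88 lower. Read per probe set rather than per gene, 833 of 23880 (3.49%) were higher and 855 (3.58%) lower. The median log2 ratio was -0.0086, its SD across genes 0.59, and its 5th and 95th percentiles -0.89 and 0.87. The sham pair, with 13474 measured genes, had 25 (0.186%) higher on the knockout-labelled array and 114 (0.846%) lower, and an SD of 0.27. The share of genes past 2-fold in either direction was thus 7.68% after ischemia-reperfusion and 1.03% after sham.

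**Figure D1:**
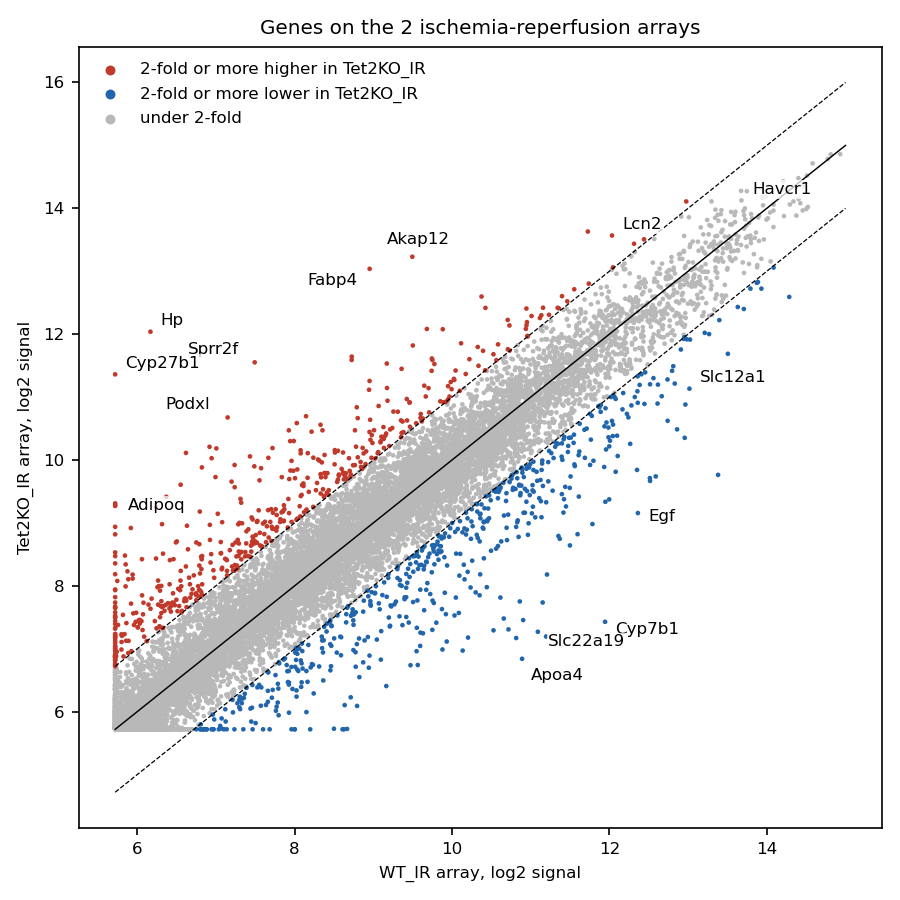
Log2 signal of the 13492 measured genes on WT_IR (horizontal axis) and Tet2KO_IR (vertical axis), 1 point per gene, with signals below the floor drawn at it. The solid line marks equal signals and the dashed lines a 2-fold difference; red points are the 497 genes higher and blue points the 539 genes lower on Tet2KO_IR.

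Other probe sets of the same gene give a partial measure of technical error. For 217 of the 497 higher genes another measured probe set existed, and for 188 of these (86.6%) all others had a positive ratio, while in 53 (24.4%) all others were past 2-fold too. Among the 539 lower genes 229 had another, with 212 (92.6%) all negative and 95 (41.5%) all past 2-fold. Over 9312 pairs of probe sets of a gene, the SD of the difference in log2 ratio, divided by the square root of 2, was 0.31. That value estimates the spread of the ratio of a single probe set. It leaves out differences between mice and between hybridisations, since probe sets of an array share the same RNA pool and hybridisation. It may also include differences between transcripts of a gene. Over 10 equal bins of rising mean signal, higher calls were most frequent in the third bin (5.71%) and least in the first (0.593%), and lower calls were most frequent in the ninth (6.15%).

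Haptoglobin, Hp, a haemoglobin-binding plasma protein of the acute phase, led the genes higher on Tet2KO_IR. Its log2 signals were 7.77, 6.17, 5.86 and 12.04. Only Tet2KO_IR was high; the 3 other arrays lay within 2 log2 units of one another, and the fold over WT_IR was 58.5. Cyp27b1, the kidney enzyme that makes active vitamin D, had 6.58, 5.23, 6.45 and 11.36, so it was at least 49.9-fold higher. Its counterpart Cyp24a1, which breaks down active vitamin D, went the other way, with 8.03, 11.02, 8.55 and 9.52 and a fold of 2.84 in favour of WT_IR.

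Sprr2f, a small proline-rich protein of stressed epithelia, had log2 signals of 3.94, 7.49, 3.76 and 11.55. Both sham arrays were below the floor, WT_IR was above it, and Tet2KO_IR was 16.7-fold higher again. The kinase-anchoring scaffold Akap12 had 8.39, 9.50, 7.66 and 13.23 and a fold of 13.3. Grp, gastrin-releasing peptide, had 4.42, 6.62, 4.65 and 10.11, a fold of 11.3, and Calcb, a calcitonin gene-related peptide, had 4.50, 4.93, 4.34 and 9.29, at least 11.8-fold. Both peptide genes stood above the floor only after ischemia-reperfusion, Calcb only on Tet2KO_IR.

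White blood cell and secreted genes were also among the 15 largest ratios and the 8 largest bounds. S100a8, a calcium-binding protein abundant in neutrophils, had log2 signals of 5.58, 6.95, 5.09 and 10.03, an 8.47-fold difference. Saa3, an acute phase apolipoprotein, had 6.90, 7.01, 6.56 and 10.19, or 9.05-fold. Chil3, a chitinase-like protein of myeloid cells, had 4.23, 5.35, 4.42 and 8.82, at least 8.56-fold. In all 3 genes the first 3 arrays stayed at or under 7.01 and Tet2KO_IR stood alone.

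A different order of arrays was seen in genes that WT_IR had least of. Itga8, an integrin of mesangial and stromal cells, had log2 signals of 9.19, 5.92, 8.86 and 8.92, so Tet2KO_IR resembled the sham arrays and WT_IR was 8.003-fold lower than Tet2KO_IR. Sfrp2, a secreted Wnt inhibitor, had 6.86, 4.71, 6.91 and 8.94 and was at least 9.30-fold higher on Tet2KO_IR. Ifi27l2a, an interferon-inducible gene, had 9.90, 6.24, 8.57 and 9.25. Its 8.05-fold difference was therefore between a low WT_IR and 3 arrays within 2 log2 units of each other.

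Tmem87a had 7.44, 6.82, 9.36 and 9.88, with both knockout-labelled arrays high. It was 8.34-fold higher on Tet2KO_IR than on WT_IR, and the log2 ratio after sham was 1.93. AI506816 shared this pattern, with 4.80, 4.72, 6.80 and 9.27. Ctla2a, a cysteine protease inhibitor, was 9.78-fold and Tert, the telomerase reverse transcriptase, 8.25-fold higher, but the other measured probe set of Tert had a log2 ratio of only 0.10.

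Cyp7b1, an oxysterol hydroxylase of the straight proximal tubule, had the lowest ratio. Its log2 signals were 13.57, 11.95, 13.57 and 7.43, which is 22.9-fold lower on Tet2KO_IR than on WT_IR, and its other probe set gave a log2 ratio of -4.28. Slc22a19, an organic anion transporter, had 12.21, 11.09, 12.78 and 7.27 (14.1-fold), and the related Slc22a7 12.56, 11.15, 12.38 and 7.74 (10.7-fold). The pattern was the same in these 3 genes: sham arrays within 0.57 of each other, WT_IR more than 1 log2 unit below them, and Tet2KO_IR far below all.

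Genes that were higher on WT_IR than on every other array formed a second kind. Apoa4, an apolipoprotein of triglyceride-rich particles, had log2 signals of 7.53, 10.89, 7.70 and 6.84. It was 16.6-fold lower on Tet2KO_IR, and its other probe set gave -4.45. Apoc3, an inhibitor of lipoprotein lipase, had 9.99, 12.59, 10.74 and 9.74, and Apob, the structural protein of those particles, 7.92, 8.67, 7.26 and 5.73, with log2 ratios of -2.85 and -2.94. The other probe set of Apob had -0.73. Mttp, which loads lipid onto Apob, had 8.78, 8.87, 7.07 and 6.79, lower on both knockout-labelled arrays. Apob, Apoc3 and Mttp were picked after their values were seen.

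Ccl28, a chemokine of mucosal epithelia, had 10.26, 11.20, 10.02 and 7.20, a 16.0-fold difference, with log2 ratios between -3.06 and -1.70 on 2 other probe sets. Cxcl12, a chemokine that retains CXCR4-bearing cells, had 11.55, 10.91, 11.12 and 7.46, or 10.9-fold. Tet2KO_IR alone was low for both. Hpd, an enzyme of tyrosine breakdown, had 11.19, 10.82, 10.13 and 7.17 (12.5-fold), and Akr1c21, an aldo-keto reductase, 13.99, 13.38, 13.21 and 9.76 (12.3-fold). Mep1b, the beta subunit of the brush border protease meprin, had 12.45, 10.14, 12.83 and 6.97 (8.97-fold). Rdh16f2 (10.6-fold), Serpina1f (9.41-fold), Acox2 (9.04-fold), the cholecystokinin receptor gene Cckar (8.63-fold) and Slc5a8, a transporter of short-chain monocarboxylates (8.15-fold), completed the 15 lowest with Egf, described with its segment. Of genes below the floor on Tet2KO_IR only, the largest bounds were at least 7.50-fold for Methig1 and at least 7.41-fold for Slc4a1, the chloride-bicarbonate exchanger of acid-secreting intercalated cells and of red blood cells.

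**Figure D2:**
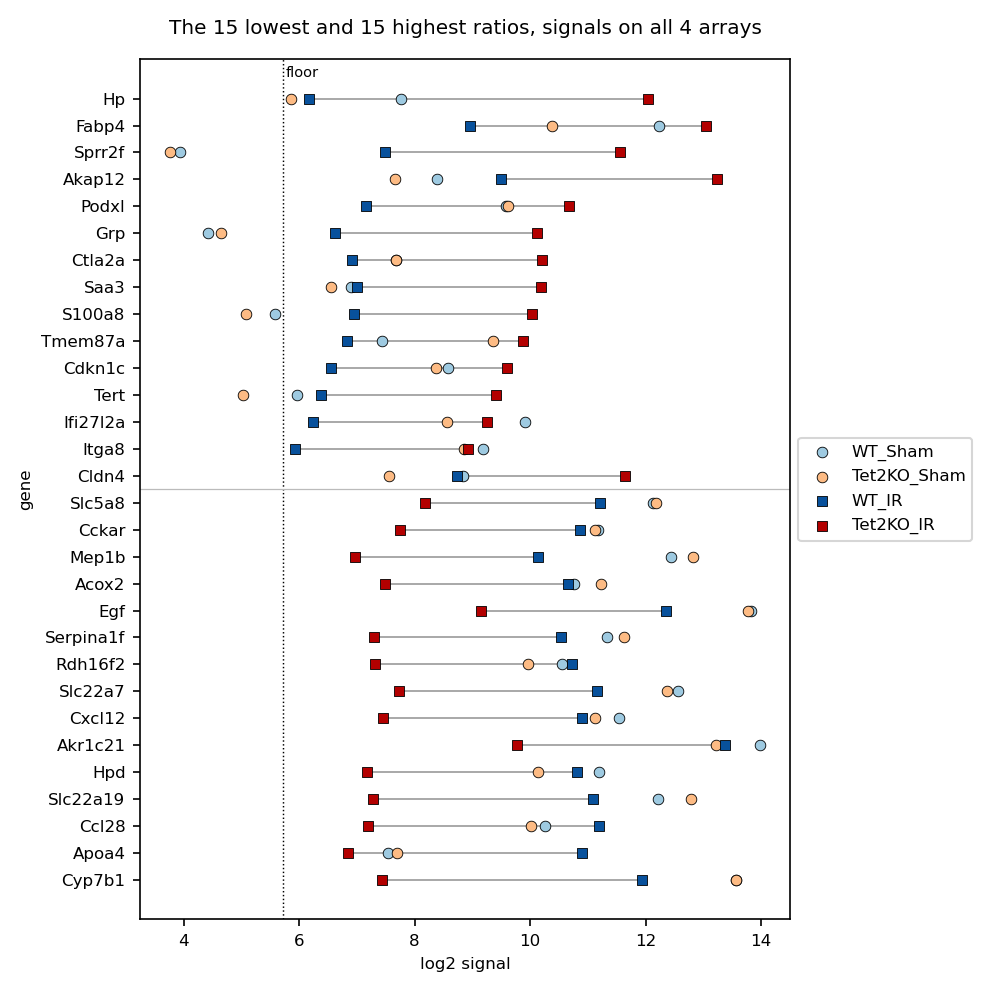
Log2 signal (horizontal axis) on all 4 arrays for the 15 genes with the highest and the 15 with the lowest ratio of Tet2KO_IR to WT_IR among genes at or over the floor (dotted line) on both. Squares joined by a line are the ischemia-reperfusion arrays and circles the sham arrays. Among the lower genes the red Tet2KO_IR square lies left of every other array, whereas among the higher genes Fabp4, Tmem87a, Ifi27l2a and Itga8 have a sham circle at or near the Tet2KO_IR square.

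The next results use gene lists, whose members at 2-fold are counted and set beside the 3.68% higher and 3.99% lower of all measured genes. Genes of injured tubules were mostly higher on Tet2KO_IR: 15 of 25 measured members were higher and 1 was lower, and their log2 ratios had a median of 1.17. Havcr1, the injury receptor KIM-1, had log2 signals of 9.52, 13.68, 7.002 and 14.13, and Lcn2, a siderophore-binding protein measured in urine as a sign of injury, 6.36, 12.03, 5.31 and 13.57. Both were far above sham on both injured arrays, with ratios between those arrays of 0.45 and 1.53. Krt20, a keratin absent from healthy tubules, had 5.77 on WT_Sham, 12.05 on WT_IR and 13.06 on Tet2KO_IR, a fold of 2.02 between the last 2, and lay below the floor on Tet2KO_Sham.

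Other members differed more. Cldn4, a tight junction protein of distal and injured epithelium, had log2 signals of 8.84, 8.73, 7.55 and 11.64, a 7.55-fold difference. Sox9, a transcription factor of regenerating tubules, had 5.81, 6.50, 5.94 and 8.71 (4.60-fold, other probe set 0.63), and Vcam1, an adhesion molecule of unrepaired tubule cells and endothelium, 6.59, 6.49, 7.36 and 8.69 (4.59-fold, others 0.26 and 1.51). Vim, an intermediate filament of dedifferentiated cells, had 8.62, 8.17, 8.35 and 10.11 and a log2 ratio of 1.94. For these 4 genes WT_IR lay close to a sham array, and Tet2KO_IR was the highest. The exception was Sprr1a, a small proline-rich protein, with 8.84, 10.95, 5.71 and 9.34 and a ratio of -1.61. Umod, also on the list as a gene that injury reduces, had -0.50.

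Because the Tet2KO_Sham array was itself lower for injury genes (list median -0.26), the ratio of ischemia-reperfusion to sham differed more between genotypes, with list medians of 1.34 in wild type and 3.06 on the knockout-labelled side. These 2 medians share their injured arrays with the present comparison and are not independent of it.

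Annexin, S100 and junction genes were higher in part, and keratins in few members. Of 13 measured keratins and small proline-rich or junction proteins 5 were higher and 1 lower (median 0.74). Among 19 annexin, S100 and galectin genes 5 were higher and 0 lower (median 0.76, or 0.32 with plain _at probe sets only), among them Anxa1, an anti-inflammatory phospholipid-binding protein, with 8.81, 7.84, 8.35 and 9.73. Several members are on more than 1 of these lists and the injury list, so the counts overlap.

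The straight segment of the proximal tubule had the lowest list median, -1.80. Of its 22 measured genes 15 were lower, 0 higher, and all 22 ratios were negative. Besides Cyp7b1, Slc22a19 and Slc22a7, Slc7a13, a cystine and aspartate transporter, had log2 signals of 13.77, 11.79, 13.80 and 8.98, and Slc22a13, a urate and nicotinate transporter, 10.74, 9.93, 11.04 and 7.12. Their ratios were -2.80 and -2.82. Slc5a1, the glucose transporter of the late proximal tubule, had 9.91, 10.50, 10.11 and 8.56, a ratio of -1.94. Kap, the androgen-regulated kidney protein, had 14.97, 14.93, 14.97 and 14.86, at the top of the arrays' range, and hardly differed.

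Early proximal tubule genes differed less (median -0.77) and 8 of 23 lower, 1 higher. The endocytic receptors of filtered protein were lower: Cubn had log2 signals of 12.83, 12.67, 12.86 and 11.01, a fold of 3.14, and Lrp2 13.25, 12.52, 13.34 and 11.20, a fold of 2.48. One of the 2 other probe sets of Lrp2 had -0.11. Gatm, which makes the creatine precursor, was 3.40-fold lower and Slc13a3, a dicarboxylate transporter, 2.80-fold lower. Slc5a2, the main glucose transporter of the early segment, had 12.37, 11.89, 12.05 and 11.96, so its injured arrays were near equal, as were those of Slc34a1 with a ratio of -0.24. Slc6a19, a neutral amino acid transporter, was the member higher, with 11.73, 11.12, 11.38 and 12.26; its other probe set had 0.12.

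Transport proteins of both proximal segments were lower in part. Of 20 organic ion and drug transporters 6 were lower and 1 higher (median -0.54). Slc16a9, a carnitine exporter, had log2 signals of 11.96 on WT_IR, 12.18 on Tet2KO_Sham and 10.17 on Tet2KO_IR, with WT_Sham between the first 2. Its fold was 3.46, and its other probe sets had -1.98 and -1.66. Slco4c1, a basolateral organic anion transporter, had 9.90, 7.96, 8.71 and 4.26 (at least 4.72-fold). The drug efflux pump Abcb1a was the member higher, with 5.70, 6.29, 5.57 and 7.50. Brush border peptidases had 4 of 11 lower and 0 higher (median -0.42, or -0.81 with plain _at probe sets only), among them neprilysin, Mme, with 11.37, 10.66, 11.18 and 9.12 (2.91-fold).

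Water channels, a family picked after its values were seen, had 6 of 10 measured members lower (median -1.11). Aqp1, of the proximal tubule and thin limb, had log2 signals of 13.23, 12.86, 13.26 and 10.49, 5.18-fold lower on Tet2KO_IR. Aqp6, of intercalated cells, had 9.87, 9.60, 9.60 and 7.05, and Aqp4, of the basolateral membrane, 10.64, 8.82, 10.39 and 7.16. Of 3 other probe sets of Aqp6 the one nearest equal had a ratio of -0.21, and those of Aqp4 had -0.84 and -0.53. Aqp2, the vasopressin-regulated channel of principal cells, had 11.71, 11.43, 10.95 and 11.13, a ratio of -0.29.

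In the thick ascending limb 10 of 14 measured genes were lower and 0 higher (median -1.38). Egf, a growth factor precursor of the distal nephron, had log2 signals of 13.82, 12.36, 13.78 and 9.16, a 9.22-fold difference. Slc12a1, the salt transporter that loop diuretics block, had 13.81, 13.02, 13.60 and 11.13 (3.69-fold), and its partner, the potassium channel Kcnj1, 11.83, 11.44, 11.57 and 9.57 (3.64-fold). The sham arrays were alike, WT_IR was below them, and Tet2KO_IR was lowest for all 3 genes, whereas Umod was within 0.50 of equal.

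Further down the nephron the shares were smaller but above the 3.99% of all genes: 5 of 16 distal convoluted and connecting tubule genes, 4 of 15 principal cell genes and 4 of 15 intercalated cell genes were lower and 0 higher, with medians of -0.66, -0.42 and -0.28. Pvalb, a calcium-binding protein of the early distal convoluted tubule, had 11.01, 9.47, 10.21 and 6.74, a 6.65-fold difference. Slc12a3, the thiazide-sensitive salt transporter of the same cells, had 12.11, 11.75, 12.01 and 10.74 (2.02-fold). Kl, the FGF23 co-receptor klotho, was 3.15-fold lower on the probe set used and had a ratio of -0.26 on another. Of 22 nephron transcription factors 1 was lower, Pou3f3, with 11.02, 10.71, 11.03 and 9.13, and the list median was -0.31.

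Genes of glomeruli, vessels and contractile stroma were higher on Tet2KO_IR. Of 13 measured podocyte genes 7 were higher and 0 lower (median 1.20), or 0.77 over the 11 above the floor on both arrays and 0.29 when every probe set was counted. Podxl, the sialomucin of foot processes, had log2 signals of 9.59, 7.15, 9.62 and 10.68 (11.5-fold, but 0.29 on its other probe set). Synpo, which binds actin in foot processes, had 8.53, 6.996, 8.52 and 9.73 (6.65-fold), and Ptpro, a receptor phosphatase of podocytes, 8.18, 5.85, 8.22 and 8.34 (5.61-fold). WT_IR was the lowest array for each. Nphs1, the slit diaphragm protein nephrin, had 6.67, 6.36, 6.87 and 6.75, a ratio of only 0.39, and Clic5 and Dach1, of the same cells, had -0.22 and -0.06.

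Of 19 measured endothelial genes 9 were higher and 0 lower (median 0.96), and 18 had a positive ratio. Emcn, a sialomucin of capillaries and veins, had log2 signals of 9.91, 7.08, 9.16 and 9.01 (3.82-fold). Cdh5, the junction cadherin, had 7.52, 6.66, 7.73 and 8.13 (2.77-fold), and Kdr, the main VEGF receptor, 8.02, 7.18, 8.26 and 8.57 (2.62-fold). Again WT_IR was lowest. Summed linear signal over the 20 matched genes was 6249 on WT_Sham, 2834 on WT_IR, 6439 on Tet2KO_Sham and 5652 on Tet2KO_IR. Fewer cells of a type and less RNA per cell cannot be told apart in whole-kidney RNA.

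Smooth muscle and activated stroma had 9 of 18 genes higher and 0 lower (median 1.23). Acta2, smooth muscle actin, had log2 signals of 9.70, 8.95, 8.87 and 11.26 (4.94-fold), and Tagln, an actin-binding protein of the same cells, 9.13, 8.03, 8.53 and 10.59 (5.89-fold). Tnc, a matrix protein of wounds, had 7.97, 7.20, 6.49 and 9.66 (5.49-fold), and Ccn2, connective tissue growth factor, 10.56, 10.38, 10.65 and 12.60 (4.67-fold). Here Tet2KO_IR exceeded all 3 other arrays. Resident fibroblast genes had a median of -0.01 with 2 of 14 higher and 1 lower, and the collagen genes Col1a1 and Col3a1 had ratios of -0.36 and -0.21.

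Fat markers were also mostly higher on Tet2KO_IR than on WT_IR. Of 14 measured adipose genes 8 were higher on Tet2KO_IR and 1 lower (median 1.05), and the median after sham was -0.78. Adipoq, the hormone that defines fat cells, had log2 signals of 10.11, 4.46, 4.19 and 9.31, and Cidec, a lipid droplet protein, 6.33, 5.06, 4.98 and 8.36. Both were below the floor on WT_IR and on Tet2KO_Sham and above it on the 2 other arrays. Fabp4, a fatty-acid-binding protein of fat cells and capillary endothelium, had 12.22, 8.95, 10.39 and 13.04 (17.0-fold, others 0.70 and 3.76). Lep and the brown fat gene Ucp1 were below the floor on both injured arrays. Another brown fat gene, Cidea, had 9.68, 5.03, 5.01 and 6.82, the same order of arrays as Adipoq. It was at least 2.14-fold higher on Tet2KO_IR. Summed linear signal over the 16 matched adipose genes was 40670, 18429, 28848 and 21897. Scd1, a fatty acid desaturase that kidney also expresses, had the opposite ratio, -1.97, and -0.88 on its other probe set.

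Urothelial genes had a median of 0.31 with 1 of 9 higher, and -1.52 after sham; Upk1b, a uroplakin of the renal pelvis lining, had 8.25, 7.34, 6.73 and 7.92. Summed linear signal over the 10 matched urothelial genes was 2396, 1144, 769 and 1468. Of 6 measured adrenal and 6 measured muscle genes 0 were called. The part of fat or pelvis tissue in any ratio was not tested, and the vessel and stroma results were computed on the same arrays.

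**Figure D3:**
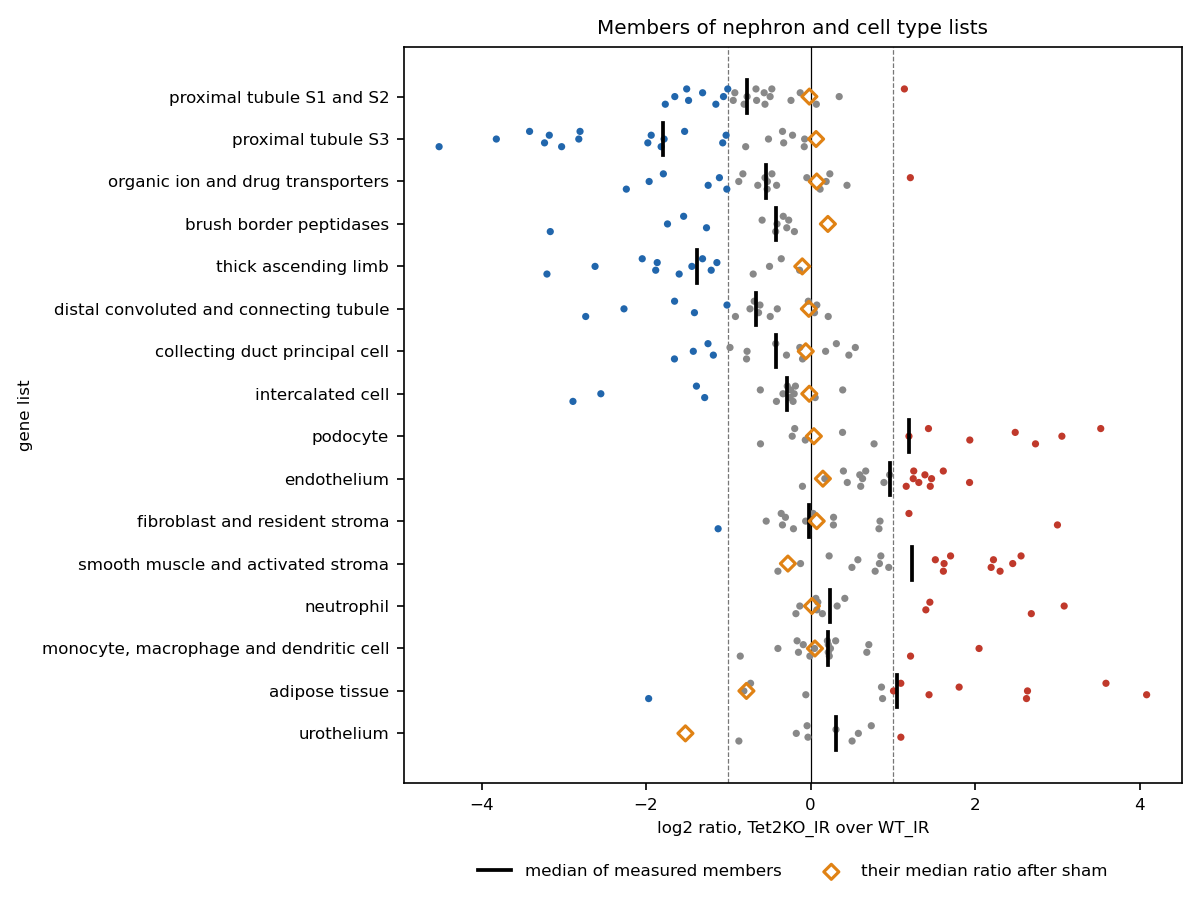
Log2 ratio of Tet2KO_IR to WT_IR (horizontal axis) for each measured member of 16 nephron and cell type lists, with red and blue points past the dashed 2-fold lines. Black bars are the list medians and orange diamonds the medians of the same genes after sham; nephron lists lie to the left and podocyte, endothelium, smooth muscle and adipose lists to the right, and the adipose and urothelium diamonds lie to the left of 0.

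White blood cell lists differed in few members. Of 12 measured neutrophil genes 4 were higher: S100a8, S100a9 (6.25, 7.24, 6.07 and 9.92), the formyl peptide receptor gene Fpr2 (2.73-fold) and the decoy receptor gene Il1r2 (2.64-fold). The granule genes Camp, Ltf and Ngp had ratios between -0.18 and 0.08, and the list median was 0.23. Summed linear signal over the 14 matched neutrophil genes was 889, 1086, 931 and 3085.

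Monocyte, macrophage and dendritic cell genes had 2 of 17 higher, Cd14 (7.29, 8.79, 6.48 and 10.84), the lipopolysaccharide co-receptor, and the complement gene C1qa (7.85, 6.23, 7.78 and 7.44). Of the 17 ratios 11 were positive and 6 negative, down to -0.86, and the list median was 0.21. The 5 measured lymphocyte and 6 measured MHC class II genes held 0 calls, with medians of -0.14 and -0.42.

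The cytokine and chemokine list was mixed, with 3 of 24 measured members higher, 2 lower and a median of 0.22. It left out Ccl28, described above. Of 12 measured genes with a Ccl symbol 2 were higher and 1 lower. Cxcl2, a neutrophil attractant, had log2 signals of 4.21, 5.85, 3.91 and 7.99 (4.40-fold), whereas its relative Cxcl1 had 8.19, 10.49, 7.74 and 9.91, slightly lower on Tet2KO_IR. Il34, a growth factor of macrophages, had 8.10, 9.18, 8.23 and 10.94 (3.39-fold). Il6 was below the floor on WT_IR and just above it on Tet2KO_IR, with 4.61 and 5.88. Ccl2 and Ifng were below the floor on both. Tnf had a ratio of -0.32, Il1b 0.73, and Cxcl10, an interferon-induced chemokine, -1.04. Interferon response genes had 3 of 24 higher and a median of 0.29.

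Receptors and targets of the gp130 cytokine family had 5 of 16 higher and 0 lower (median 0.76, or 0.38 when every probe set was counted). Osmr, the oncostatin M receptor, had log2 signals of 7.60, 8.01, 7.61 and 9.71, and Cebpd, a transcription factor downstream of STAT3, 8.30, 8.08, 7.72 and 10.11. Their other probe sets had ratios of 0.64 and 0.18. Clcf1, a ligand of the family, had 4.70, 8.41, 5.38 and 9.79 (2.60-fold, others 1.17 and 1.69).

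Acute phase genes, which this cytokine family is known to induce in liver, had 7 of 14 higher and 0 lower (median 1.05, or 0.53 when every probe set was counted). Besides Hp and Saa3, the fibrinogen beta chain Fgb had 4.61, 8.73, 4.52 and 11.59 (7.28-fold) and the gamma chain Fgg 9.24, 12.31, 7.26 and 13.44 (2.18-fold). Both chains were above sham on both injured arrays and highest on Tet2KO_IR. Serpina3n, a protease inhibitor, had 6.07, 7.03, 5.80 and 9.15 (4.35-fold). Of the 14 ratios 12 were positive and 2 negative. On probe sets outside the counts, Saa1 had a ratio of -0.55 and Cp had ratios from -0.88 to 1.12.

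Among plasminogen and thrombin genes 5 of 12 were higher and 0 lower (median 0.85). F2r, the thrombin receptor, had log2 signals of 9.83, 9.88, 10.38 and 12.08 (4.58-fold). Thbd, the endothelial thrombin co-factor thrombomodulin, had 7.74, 7.31, 7.75 and 9.38 (4.20-fold), and Procr, the protein C receptor, 6.80, 7.32, 6.96 and 9.32 (3.999-fold). Plaur, the urokinase receptor, had 7.36, 8.30, 6.95 and 10.01 (3.27-fold). For all 4 genes Tet2KO_IR was the highest array.

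Immediate early and AP-1 genes had 7 of 23 higher and 0 lower (median 0.49). The AP-1 subunits Fosl1 (5.16, 6.79, 5.08 and 8.32; other probe set 0.83) and Junb (8.04, 7.52, 6.79 and 8.69) were higher on Tet2KO_IR, as were the zinc finger factors Klf4 (3.01-fold) and Klf6 (2.74-fold). Fosl2 was 2.59-fold higher on one probe set and -0.02 in log2 ratio on the other. Fos, Egr1 and Jun themselves had ratios of -0.47, -0.25 and 0.21. After sham 7 members were lower on the knockout-labelled array, with a list median of -0.26. Dusp1, the phosphatase that switches off MAP kinases, had 12.01, 9.78, 10.94 and 11.53, so it was lowest on WT_IR.

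AP-1 binds the palindrome-like site TGACTCA, and the cyclic AMP factor CREB and its relatives bind TGACGTCA. Both were searched on either strand of the 250 bases before each RefSeq gene start of build GRCm38.p6, for which 27025 genes had a sequence. These genes had 32851 promoters. A gene was counted if any of its promoters held the site, so the shares are of genes. TGACTCA lay before 5.16% of all genes with a promoter and 4.22% of the 10840 measured ones. It lay before 31 of 379 higher genes (8.18%) and 25 of 436 lower ones (5.73%). By list it lay before 5 of 18 tubular injury genes (27.8%) and 0 of 19 immediate early genes. TGACGTCA lay before 1.77% of all genes, 2.80% of measured genes, 1.58% of the higher and 0.688% of the lower. In the immediate early list it lay before 2 of 19 (10.5%). Neither word contains the other. On either strand, TGACTCA also lay before named lower genes, among them Hpd, Acox2, Sprr1a and Mme, with ratios of -3.64, -3.18, -1.61 and -1.54. TGACGTCA lay before the lower gene Hlf, with a ratio of -2.52. A match is a description of letters, not a bound site.

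Stretches around such matches are shown for injury and thrombin genes and the MAP kinase phosphatase gene Dusp1, all higher on Tet2KO_IR than on WT_IR, with the matching bases in capitals, the gene's own strand 5′ to 3′ and distances counted back from the gene start. In Plaur the match began 69 bases before the start, at chr7:24462384-24462450 on the plus strand. In Cldn4, on the minus strand of chr5:134947056-134947122, it began 158 bases before, and a second match lay 240 bases before. In Procr, on the plus strand of chr2:155751033-155751099, the distance was 154 bases. Sprr2f, on the plus strand of chr3:92364960-92365026, held the reverse complement 197 bases before its start. Dusp1, on the minus strand of chr17:26508578-26508645, held TGACGTCA 143 bases before its start.
Plaur: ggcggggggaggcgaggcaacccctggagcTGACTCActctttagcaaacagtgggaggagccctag
Cldn4: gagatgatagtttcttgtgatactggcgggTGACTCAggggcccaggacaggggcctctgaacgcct
Procr: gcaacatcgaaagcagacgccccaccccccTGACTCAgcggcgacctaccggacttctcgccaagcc
Sprr2f: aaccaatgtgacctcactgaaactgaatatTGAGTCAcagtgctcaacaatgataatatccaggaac
Dusp1: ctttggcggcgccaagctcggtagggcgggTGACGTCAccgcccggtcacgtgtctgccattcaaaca

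For the lower genes the motif of HNF1, a transcription factor of the proximal tubule and liver, was searched as GTTAATNAT. Counted by gene as before, it lay before 0.866% of all genes and 0.627% of measured genes. It lay before 10 of 436 lower genes (2.29%) and 0 of 379 higher genes. By list it lay before 0 of 20 early and 0 of 16 straight proximal tubule genes. In the acute phase list, whose called members were higher, it lay before 2 of 14 (14.3%). The STAT motif TTCCNGGAA was in 1.09% of all, 1.06% of higher and 1.83% of lower genes. G6pc, the last enzyme of glucose release, held the HNF1 motif 221 bases before its start, on the plus strand of chr11:101367466-101367533. In Slc22a29, an organic anion transporter, the reverse complement lay 32 bases before the start, on the minus strand of chr19:8218901-8218962. These stretches show where the letters fall in both lower genes.
G6pc: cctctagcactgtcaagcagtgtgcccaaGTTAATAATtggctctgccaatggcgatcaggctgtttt
Slc22a29: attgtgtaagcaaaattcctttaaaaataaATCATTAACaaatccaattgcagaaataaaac

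Signals for growth and matrix were mixed. Of 22 TGF-beta and BMP genes 4 were higher and 2 lower (median 0.34). The BMP targets Id1 (9.77, 9.01, 8.95 and 10.47) and Id3 (9.44, 8.77, 9.07 and 10.47) were higher on Tet2KO_IR, and Grem1 (6.36, 8.31, 6.43 and 6.72), which binds and blocks BMP ligands, was lower. Grem1 was high on WT_IR alone, with a fold of 3.02. Matrix proteases and their inhibitors had 4 of 21 higher and 0 lower (median 0.52), and the inhibitor Timp1 had 5.47, 7.72, 5.89 and 8.91. The list of EGF family and receptor genes also held insulin-like growth factor binding proteins. Of its 16 measured genes 1 was higher, the binding protein Igfbp3 (2.63-fold, other probe set 0.58). The 3 lower were Egf, the binding protein Igfbp1 and Btc, betacellulin, with 7.84, 8.47, 7.81 and 7.05 (2.68-fold, other probe set -0.63). MAP kinase feedback genes had 2 of 18 higher, Dusp1 and Dusp5 (2.46-fold).

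Iron and metallothionein genes had 3 of 14 higher, Lcn2, Hmox1 and the metal-binding Mt1 (11.86, 12.98, 11.49 and 14.11), and 1 lower, the zinc and iron importer Slc39a8 (10.92, 9.72, 10.86 and 7.87; 3.61-fold). Hypoxia and glycolysis genes had 1 of 25 higher and 3 lower. Car9, a carbonic anhydrase induced by HIF, had 8.81, 8.82, 7.91 and 6.55 (4.84-fold lower), and the hexokinase Hk2 6.27, 5.98, 5.87 and 7.43 (2.73-fold higher). Complement had 1 of 15 higher (median 0.17). Adhesion and NF-kappaB feedback had 2 of 16 higher (median 0.44), Vcam1 and the NF-kappaB subunit Rela (9.53, 9.62, 9.59 and 10.62). Red blood cell genes gave 5 measured members, with Alas2, of haem synthesis, higher and Slc4a1 lower.

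Metabolic genes of the tubule were lower as groups. Amino acid catabolism had 13 of 25 measured genes lower and 0 higher (median -1.06), and all 25 ratios were negative. Hao2, a peroxisomal hydroxyacid oxidase, had log2 signals of 13.23, 12.35, 13.05 and 9.84 (5.69-fold), and Hgd, of the same tyrosine pathway as Hpd, 12.996, 12.83, 13.02 and 11.22 (other probe set -0.88). Arg2, the mitochondrial arginase, had 8.51, 12.10, 8.32 and 10.39, so it was above sham on both injured arrays and 3.27-fold higher on WT_IR than on Tet2KO_IR.

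Cytochrome P450 and conjugation genes had 14 of 29 lower and 1 higher, Cyp27b1 (median -0.88). Over all 45 measured genes with a Cyp symbol the difference was smaller, with 8 lower, 1 higher and a median of -0.17. Cyp2d9 had 12.06, 12.52, 11.48 and 9.67 (7.20-fold), and the sulfotransferase Sult1c2 11.47, 11.35, 10.19 and 8.79 (5.89-fold). The members of these gene families are alike in sequence, so a probe set can pick up a relative. Gluconeogenesis had 5 of 11 lower (median -0.81). G6pc, whose promoter is printed above, had 12.44, 11.13, 12.07 and 9.68 (2.72-fold), and Pck1, the rate-limiting enzyme, 13.35, 13.89, 13.54 and 12.83 (2.08-fold, other probe set -0.53).

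Fatty acid oxidation differed less, with 4 of 28 lower, 2 higher and a median of -0.38. Acadm, which oxidises medium chains, had log2 signals of 14.28, 13.93, 14.30 and 12.72 (2.31-fold). Cyp4a14, a fatty acid hydroxylase induced by PPAR alpha, had 7.73, 13.51, 8.57 and 11.69 (3.52-fold). Pdk4, a mitochondrial kinase that inhibits pyruvate dehydrogenase, had 9.53, 9.36, 8.14 and 11.45, 4.26-fold higher on Tet2KO_IR. Respiratory chain genes had 0 of 30 past 2-fold but 28 negative ratios and a median of -0.27. Cholesterol synthesis had 4 of 17 lower and a median of -0.35, with Cyp51 at 11.92, 10.19, 12.10 and 8.89 and other probe sets at ratios of -1.95 and -0.30.

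Stress and death pathways were split. Heat shock and unfolded protein genes had 4 of 24 lower, 1 higher and a median of -0.56; the endoplasmic reticulum chaperone Hspa5 had 12.81, 12.95, 12.89 and 11.95, with -1.25 and -0.16 on other probe sets. ATF4 targets had 4 of 20 higher and a median of 0.37. Asns, asparagine synthetase, had 7.73, 9.13, 9.28 and 10.52 and was also higher on the knockout-labelled array after sham. Nupr1, a stress-induced chromatin protein, had 10.48, 8.31, 7.86 and 9.99.

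Among NRF2 targets 3 of 19 were higher (median -0.25); haem oxygenase Hmox1 had 5.56, 7.14, 6.16 and 8.41 (2.41-fold). Of 19 p53 targets 2 were higher, the cell cycle inhibitor Cdkn1a (7.75, 9.75, 7.43 and 11.61; 3.65-fold) and the kinase Plk3 (3.40-fold). Cell cycle lists showed 0 calls in 21 S phase and 14 mitosis genes, with medians of -0.10 and -0.07. Mlkl, the effector of necroptosis, had 5.22, 7.95, 5.58 and 9.83 (3.70-fold), and Bak1, a pore-forming death protein, 6.49, 7.29, 7.13 and 8.98 (3.23-fold). On the probe sets used, these were the sole calls on the necroptosis and apoptosis lists, of 16 and 19 measured genes (6.25% and 5.26%). Over all measured genes 3.68% were higher. Of the 19 apoptosis genes 15 had a positive and 4 a negative ratio. Bcl2 had a ratio of -0.03, and Bcl2l1, of the same family, had 1.69 on a probe set outside the counts.

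Clock genes had 4 of 18 lower and 2 higher. The output factors Hlf (10.14, 10.09, 10.09 and 7.57) and Dbp (11.80, 11.56, 11.78 and 9.93) were alike on 3 arrays and lower on Tet2KO_IR, by 5.72-fold and 3.08-fold. The repressors Per2 and Per3 had ratios of -1.82 and -1.03, but none of their other probe sets was past 2-fold, with -0.71 and -0.52 for Per2 and -0.73 to -0.35 for Per3. The activator Arntl had 1.18, and -0.06 on its other probe set.

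Partners of TET2 differed little: of 21 measured genes of DNA methylation and demethylation 1 was higher, Cxxc5 (10.71, 10.53, 10.75 and 11.68; other probe set 0.95), a zinc finger protein that binds unmethylated CpG, and 0 were lower. Tet3 had a ratio of -0.09 and Tet1 lay at the floor. Of the 20 RefSeq genes next to Tet2 on chromosome 3, 10 on each side, 14 were measured. Of these 14, 3 were lower and 0 higher, beside 3.99% lower and 3.68% higher of all measured genes. Those 3 were Ints12 with 8.38, 8.09, 8.34 and 6.47, Papss1 with 12.01, 11.22, 11.90 and 9.97, and Bdh2 with 12.09, 11.42, 12.28 and 10.33. All 3 were near equal on the sham arrays, and the other probe set of Ints12 had a ratio of 0.32.

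As a reference, 0 of 14 reference genes and 0 of 18 ribosomal protein genes were past 2-fold, with medians of 0.16 and 0.17. Actb, cytoskeletal actin, had 13.27, 13.42, 13.14 and 13.97, a ratio of 0.55.

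**Figure D4:**
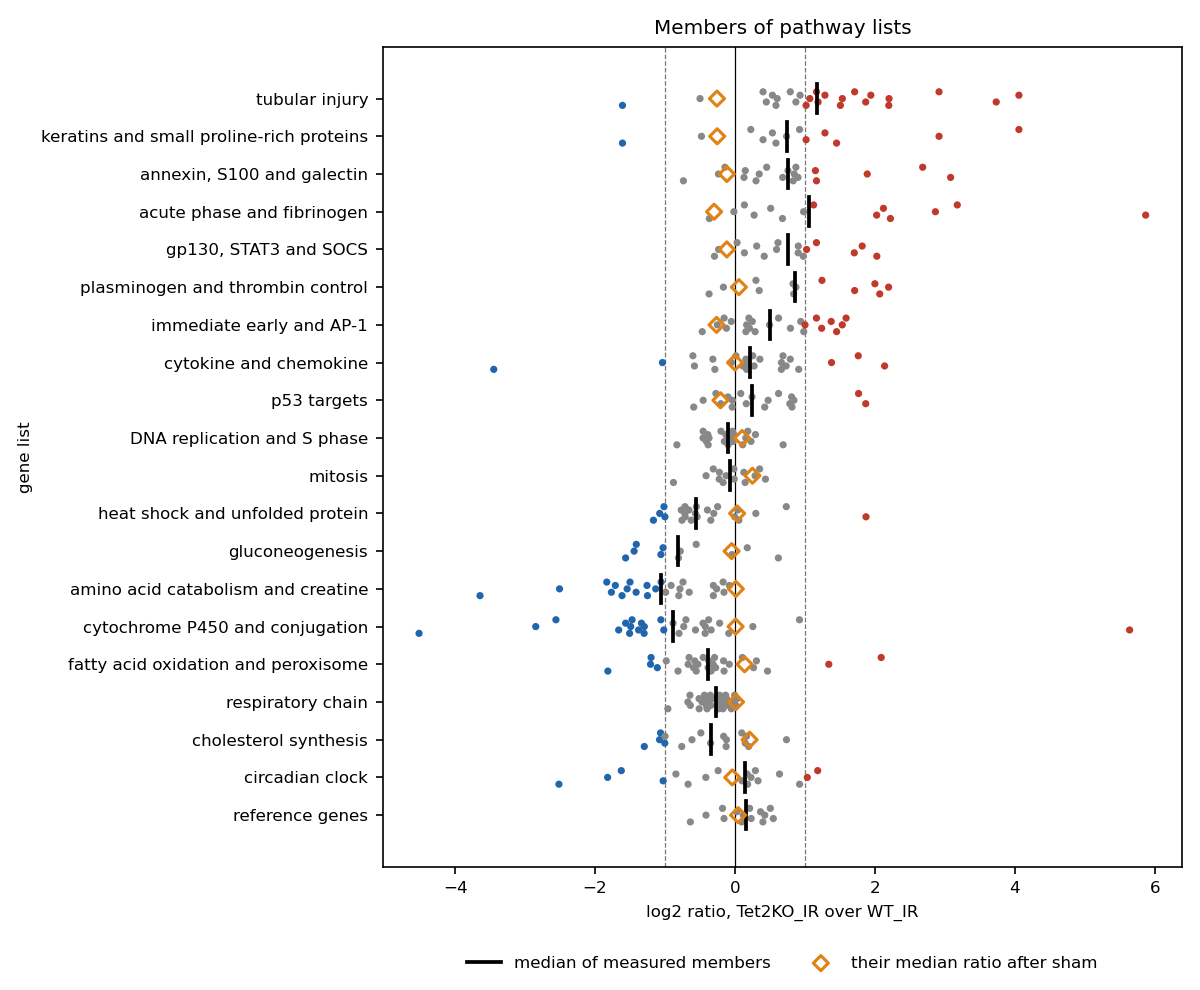
Log2 ratio of Tet2KO_IR to WT_IR (horizontal axis) for each measured member of 20 pathway lists; points past the dashed 2-fold lines are red or blue, black bars are list medians and orange diamonds the medians of the same genes after sham. Injury and acute phase lists have medians of 1.17 and 1.05, amino acid catabolism one of -1.06, and cell cycle and reference lists hold no coloured point.

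The genotype comparison after sham, made on the 2 other arrays, shared few of the genes called after ischemia-reperfusion. Across the 13158 genes measured in both comparisons the log2 ratios had a Pearson r of -0.014 and a Spearman rho of -0.0045, given as a description over genes. Of 461 higher genes measured in both, 9 were also higher after sham at 2-fold and 20 were lower. Of 538 lower genes 16 were also lower and 0 higher. Over all genes measured after sham the shares were 0.186% higher and 0.846% lower. The 9, 20 and 16 genes were larger shares of their sets than these, and the 0 was not.

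Genes that differed the same way with and without injury included Abhd1, a hydrolase, with log2 signals of 7.21, 7.56, 11.37 and 9.68, and Azgp1, a lipid-mobilising secreted protein, with 5.88, 5.94, 9.74 and 8.18. Both were high on the knockout-labelled arrays alone and higher after sham than after injury. Col5a2, a fibrillar collagen, had 6.92, 6.46, 9.92 and 8.43, but its other probe set had a ratio of 0.02 after ischemia-reperfusion. Lower in both were Hpd, Sult1c2, Mttp, Sprr1a and Cryab, a small heat shock protein with 12.10, 12.07, 10.37 and 11.005.

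**Figure D5:**
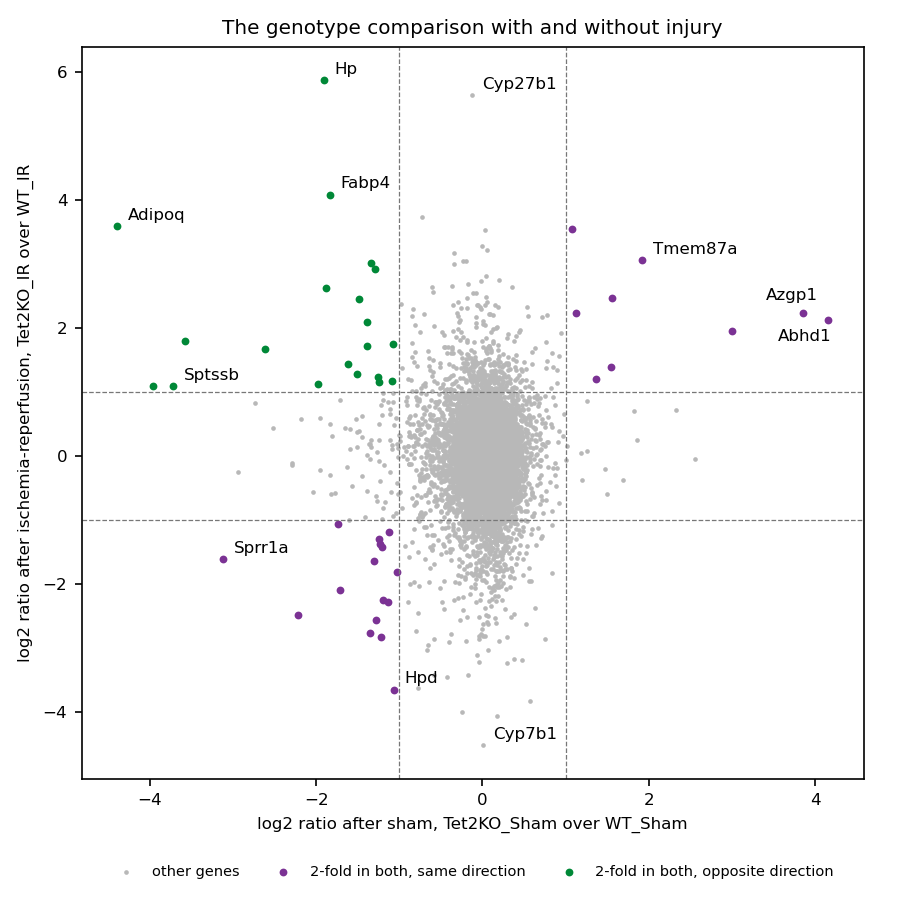
Log2 ratio of the knockout-labelled to the wild-type array after ischemia-reperfusion (vertical axis) against the same ratio after sham (horizontal axis) for the 13158 genes measured in both. Purple points are past 2-fold (dashed lines) in the same direction in both and green points in opposite directions; the cloud is tall and narrow, and the 20 green points all lie at the upper left.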

How the data were processed

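Kidney RNA of 4 groups was measured on 1 Affymetrix 3′ expression array each, from Trizol-extracted RNA pooled from 3 mice and labelled as biotinylated cRNA, per the labels' protocols. The authors' deposited values are log2 signals, 1 column per array, as read from their range. The submitters' processing notes name MAS5 without a version; scaling target and filters are not given in the sources used here, and an intensity scale shared by the arrays is assumed. Signals below a floor (40th percentile, log2 5.72, linear 52.8) were raised to it. Symbols came from the platform annotation: 34945 probe sets had 1 symbol, 932 several and 9160 were not listed there. A gene was read from its probe set with the highest mean signal, avoiding _x_at types, which can bind other transcripts, except for 100 genes. Of 215 named genes 2 were read from _x_at and 15 from _s_at probe sets, whose signal may be shared with related transcripts.

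Ratios are differences of log2 signals, with no test. Counts and medians describe 58 gene lists with 1132 different members, of which 1024 were matched, 4 of them through an Entrez identifier, and 920 measured; a member not matched was not analysed here. Named genes are the 15 highest and 15 lowest ratios, the 8 largest bounds on each side, up to 5 members per list past 2-fold and a set given whatever its values. Genes outside this rule, named to show a list's other members or neighbours, were chosen after their values were seen. Members and lists were chosen with earlier results of these data known. Promoter sequences and gene order came from RefSeq, GRCm38.p6. The calling steps were tested on simulated data. Python 3.11.15, numpy 2.4.6, pandas 2.3.3 and matplotlib 3.10.9 were used.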

Additional observations from a re-analysis of the deposited data

Results flagged for a closer look

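Named genes were looked at again where the log2 ratio of knockout-labelled to wild type was past 2-fold in one direction after ischemia-reperfusion and past 2-fold in the other after sham. These are 1 array against 1 array, so the difference between the 2 comparisons was not tested. After ischemia-reperfusion the ratio was 5.87 for the haemoglobin-binding protein Hp, 4.08 for Fabp4, 3.59 for the fat hormone gene Adipoq, 3.01 for the interferon-inducible Ifi27l2a, 2.92 for the junction protein Cldn4 and 2.62 for the carbonic anhydrase Car3. It was 2.46 for the matrix protein Tnc, 2.09 for Pdk4, 1.75 for the phosphatase Dusp1, 1.68 for the stress gene Nupr1, 1.29 for the keratin Krt19, 1.24 for the plasminogen activator Plat, 1.16 for Junb and 1.10 for Sptssb. Other probe sets had 0.70 and 3.76 for Fabp4, 0.51 for Car3, 0.39 for Plat and 0.79 for Sptssb. After sham the ratios of the same genes were negative, from -4.39 for Adipoq to -1.07 for Dusp1. The fibrinogen chain gene Fgg and the brown fat gene Cidea, described after their values were seen, met the same condition. Fgg had 1.12 after ischemia-reperfusion and -1.97 after sham, and Cidea had 1.10 and -3.96.

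Rows that the comparison does not use, those without exactly 1 gene symbol, also differed: 115 of 4239 measured were higher on Tet2KO_IR and 100 lower, together 5.07% past 2-fold, against 1.23% between the sham arrays.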

How the results depend on the processing

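With 1 array a side, no array could be left out. No paired analysis was possible because each group is 1 array and no test was made. Counted over every probe set with 1 symbol, 833 were higher and 855 lower. Over the other 8 settings (median over probe sets, plain _at probe sets only, floors at the 30th and 50th percentile, a pseudocount of 50 in place of the floor, genes at the floor or over on both arrays, quantile normalization, centring on the median) the counts ran from 340 to 537 higher and from 418 to 584 lower, and all were within 1.5 times the main counts. The share of calls that were higher ran from 43.6% to 48.6%, against 48.0%.

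Of the list medians under all settings 507 stayed within 0.31, the SD estimated for a single probe set, 15 moved further and 0 reversed. The podocyte median fell to 0.77 with genes over the floor on both arrays and to 0.29 over every probe set. Among single genes Arntl reversed, to -0.063 with plain _at probe sets only, and 25 of 196 named genes called at 2-fold were under it with the pseudocount. Fabp4 had 0.70 with plain _at probe sets only.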
